A study of Homo sapiens with 4 samples.

Results

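Class I antigen presentation was described here by 9 genes: the heavy chains HLA-B, HLA-C and HLA-E, the light chain B2M, the peptide transporter genes TAP1 and TAP2, the loading factor TAPBP, and the transactivators NLRC5 and CIITA. Their rows were taken by gene identifier, and they hold 9 of 35316 gene identifiers and 172 of 350863 annotated splice junctions. The measurement was ribosome profiling, in which messenger RNA fragments of about 29 bases that ribosomes shield from RNase I are sequenced. The samples were 2 of K562, an established leukaemia line with erythroid features, and 2 of HepG2, an established line from a liver tumour. The labels name no treatment and no genetic change, and both lines were lysed with cycloheximide, which arrests elongating ribosomes. Each line has 1 deposited table in which its samples are pooled, so there is no spread between samples and no test. Intervals are exact 95% intervals and cover counting error only. With 1 line from each source, a difference describes these lines and not their tissues.

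Class I molecules display peptides from inside the cell to cytotoxic T cells. A heavy chain folds in the endoplasmic reticulum with beta-2 microglobulin, the product of B2M. The transporter of TAP1 and TAP2 brings in peptides, and tapasin, the product of TAPBP, holds the empty molecule at the transporter. NLRC5 is known to activate class I genes and CIITA class II genes, and interferon gamma induces both. K562 is widely used as a target of natural killer cells because it shows little class I on its surface.

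HLA-B, HLA-C, HLA-E and TAP1 had fewer junction footprints in K562 than in HepG2, while B2M was near equal in both. TAPBP and TAP2 lay between. A gene was counted as different when the whole interval of its K562 to HepG2 ratio lay past 2-fold, on uniquely mapped reads scaled by TMM, which sets the depth of each table from the bulk of the genes. Of the 9 genes, 7 reached the minimum of 20 unique reads over both tables. Of these, 4 were higher in HepG2, against 21.9% of 10956 genes tested, and 0 were higher in K562, against 16.8%. Their median log2 ratio of K562 to HepG2 was -2.07, against -0.01 over all genes tested. Scaling by total reads instead moved the median of all genes to 0.41 and the share of calls that were higher in K562 from 43.3% to 58.0%, and the count for these genes stayed at 4. Fewer messenger RNA copies and fewer ribosomes on each copy cannot be told apart from footprints alone, nor can fewer cells with a gene and less of it in each cell.

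**Figure D1:**
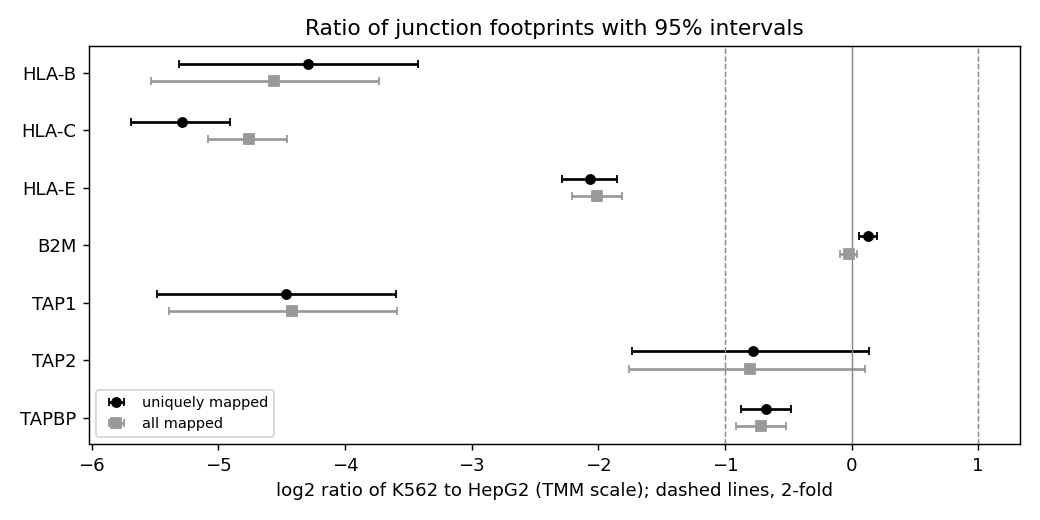
Log2 ratio of K562 to HepG2 for the 7 genes with at least 20 unique reads, from uniquely mapped reads (circles) and from all mapped reads (squares), with 95% intervals; dashed lines mark 2-fold. HLA-B, HLA-C, HLA-E and TAP1 lie wholly below the lower line with either kind of read, and B2M sits at 0.13 with unique reads and -0.02 with all mapped reads.

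HLA-C, a classical heavy chain that also binds killer cell receptors (GRCh38 chromosome 6, 31268749 to 31272086, minus strand), had 58 unique reads in K562 and 2254 in HepG2. It was 39.0-fold higher in HepG2 (95% interval 30.1 to 51.6). With all mapped reads, 90 and 2381, it was 27.1-fold higher (21.9 to 33.8). Its K562 to HepG2 ratio was the lowest of the 7 genes, but its interval overlaps those of HLA-B and TAP1 with either kind of read, so their order is not settled.

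HLA-B, the other classical heavy chain described here (chromosome 6, 31353872 to 31357187, minus strand), had 11 unique reads in K562 and 214 in HepG2. The ratio was 19.5-fold in favour of HepG2 (10.7 to 39.7), and the 11 reads set the width of the interval. With all mapped reads the counts were 12 and 277.

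HLA-E, a non-classical heavy chain that presents leader peptides of other class I chains to the NKG2A receptor (chromosome 6, 30489467 to 30494205, plus strand), had 224 unique reads in K562 and 934 in HepG2. It was 4.19-fold higher in HepG2 (3.62 to 4.87), a smaller difference than for HLA-B or HLA-C, whose intervals do not reach it. The size rested partly on 1 junction: the log2 ratio was -2.07 over all junctions, -1.33 over coding junctions and -1.36 without the most-read junction, both of which leave out exons 7 to 8. It was -1.90 over inner coding junctions, which also leave out exons 6 to 7, and the call held each time.

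B2M (chromosome 15, 44711517 to 44718145, plus strand) had 3418 unique reads in K562 and 3116 in HepG2. The K562 to HepG2 ratio was 1.09 (1.04 to 1.15), and with all mapped reads, 3608 and 3579, it was 0.985 (0.940 to 1.03). The light chain therefore stayed within 2-fold between the lines, with a direction that depended on which reads were counted.

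TAP1, a subunit of the peptide transporter (chromosome 6, 32845209 to 32853978, minus strand), had 11 unique reads in K562 and 242 in HepG2. It was 22.1-fold higher in HepG2 (12.1 to 44.9). TAP2, its partner (chromosome 6, 32825415 to 32838780, minus strand), had 315 and 454 unique reads over all its junctions, of which 298 and 425 lay on 10 junctions that the annotation also gives to an overlapping readthrough gene. On its own junctions TAP2 had 17 reads in K562 against 29 in HepG2, a ratio of 1.71 in favour of HepG2 (0.911 to 3.32). With the shared junctions counted the ratio was 1.44 (1.24 to 1.67), so TAP2 passed the 2-fold limit in neither count. The interval of TAP1 lies above that of TAP2 in both counts.

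TAPBP, which encodes tapasin (chromosome 6, 33299694 to 33314387, minus strand), had 344 unique reads in K562 and 547 in HepG2, 1.60-fold higher in HepG2 (1.39 to 1.83). Its reads were 99.7% uniquely mapped in K562 and 99.1% in HepG2. TAPBP was read at all 7 junctions of its reference transcript in both lines.

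The transactivators were nearly without reads. NLRC5 (chromosome 16, 56989498 to 57083524, plus strand) had 3 reads in K562 against 11 in HepG2, at 10 of its 73 junctions. CIITA (chromosome 16, 10877198 to 10936388, plus strand) had 1 read in K562 and 0 in HepG2. Neither reached the minimum of 20, and a difference in either was not detectable at this depth.

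Levels of different genes were compared as CPM of unique reads (counts scaled to a common depth) per coding junction of a reference transcript. B2M stood highest in both lines, at 190 in K562 and 185 in HepG2. In HepG2 the order then ran HLA-C 38.8, HLA-E 10.7, TAPBP 9.23, TAP2 4.09, HLA-B 3.82, TAP1 2.92, NLRC5 0.021 and CIITA 0, for which the upper limit was 0.0247. In K562 it ran TAPBP 5.81, HLA-E 4.02, TAP2 2.53, HLA-C 0.857, HLA-B 0.200, TAP1 0.132, CIITA 0.0067 and NLRC5 0.0052. HLA-C thus held the second place in HepG2 and the fifth in K562, behind TAPBP, HLA-E and TAP2. The levels of TAP2 include the junctions shared with the readthrough gene. Those of HLA-C include exons 7 to 8, with 27 reads in K562 and 1382 in HepG2. In HLA-B and HLA-E that junction lies past the last sense codon and is left out. Neighbours whose intervals overlap, and whose order is therefore not settled by counting error, were HLA-E and TAPBP, TAP2 and HLA-B, HLA-B and TAP1, and NLRC5 and CIITA in HepG2, and HLA-B and TAP1 and the same pair of transactivators in K562.

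**Figure D2:**
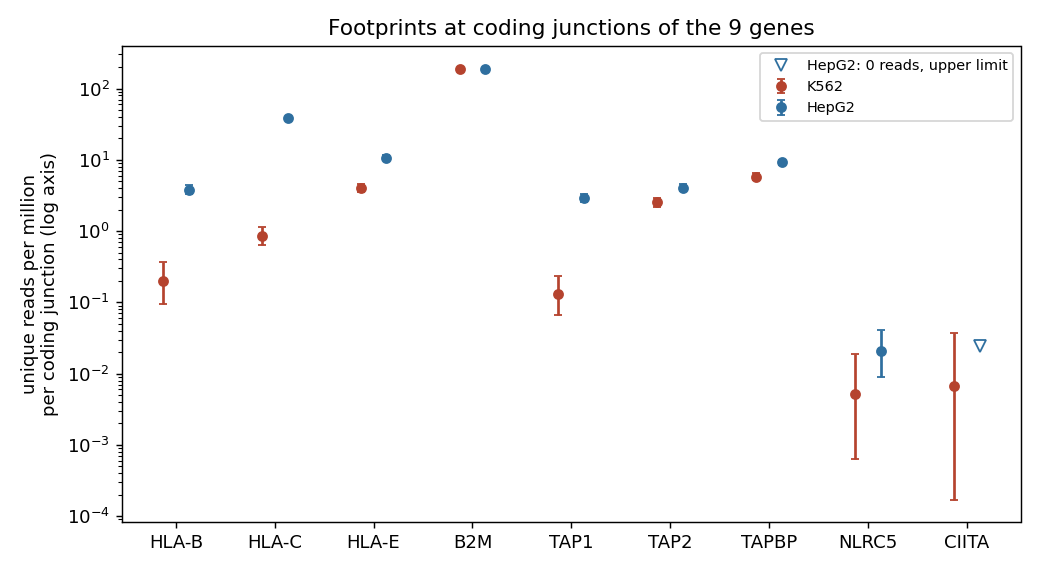
CPM of unique reads per coding junction (log axis) for each of the 9 genes in K562 and HepG2, with exact 95% Poisson intervals; the open triangle is the upper limit for CIITA in HepG2, which had 0 reads. B2M is near 190 in both lines, and HLA-B, HLA-C and TAP1 show the widest gaps between lines.

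The balance of light to heavy chain differed between the lines. Summed over HLA-B, HLA-C and HLA-E, the heavy chain level was 5.07 in K562 and 53.3 in HepG2 on the per-junction scale. B2M stood at 37.4 times that sum in K562 and 3.48 times in HepG2. The B2M level averages 2 coding junctions and rests mostly on exons 2 to 3, 11 bases before the end of the last sense codon. That junction held 2354 of 3168 coding reads of B2M in K562 and 2360 of 3077 in HepG2. HLA-E made up 79.2% of the sum in K562 and 20.02% in HepG2, and HLA-C 16.9% and 72.8%. HLA-B made up 3.94% and 7.16%. Other class I genes are not in this sum. The exon 7 to 8 junction counts in it for HLA-C only. That junction held 27 of the 50 coding reads of HLA-C in K562 and 1382 of 2253 in HepG2. The sums, the shares and the multiples for B2M therefore depend on it, and values without it were not computed.

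The heavy chain genes are close copies of one another, which bears on how reads are placed. At the exon 5 to 6 junction the transcripts of the 3 genes are nearly alike, and at the exon 3 to 4 junction they differ most. The 30 bases around each junction, 15 on each side, are printed from the GENCODE 29 reference transcripts so that these can be compared, with capitals at each position where the 3 genes are not the same. At the exon 5 to 6 junction they differ in 2 positions.
HLA-B: ggaGgaagagTtcaggtggaaaaggaggga
HLA-C: ggaGgaagagCtcaggtggaaaaggaggga
HLA-E: ggaAgaagagCtcaggtggaaaaggaggga

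At the exon 3 to 4 junction they differ in 9 positions.
HLA-B: AgctgGAGcGcGCTgaCcccccaaagacac
HLA-C: CgctgCAGcGcGCAgaAcccccaaagacac
HLA-E: CgctgCTTcAcCTGgaGcccccaaagacac

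Among junctions with at least 10 mapped reads, those that mapped to more than 1 place took their largest share of HLA-C and HLA-E at exons 5 to 6. At the exon 5 to 6 junction HLA-E had 27 unique of 71 mapped reads in K562 (38.03%) and 119 of 233 in HepG2 (51.1%). HLA-C had 20 of 48 in K562 (41.7%) and 692 of 814 in HepG2 (85.0%), and HLA-B had 8 of 15 in HepG2 (53.3%). At the exon 7 to 8 junction, where the windows differ in 5 positions, unique reads were 27 of 27 mapped for HLA-C in K562 and 99.9% in HepG2. HLA-B was also low at the exon 4 to 5 junction, with 48 of 86 in HepG2 (55.8%). Of 20 placements of a 29-base fragment across each junction, an exact match to another gene's transcript was found for 1 at exons 5 to 6 of HLA-C and of HLA-E, and for 7 at exons 1 to 2 and 3 at exons 4 to 5 of HLA-B. HLA genes vary between people, and the reference holds 1 sequence of each, so how far the alleles of each line differ from it was not tested.

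**Figure D3:**
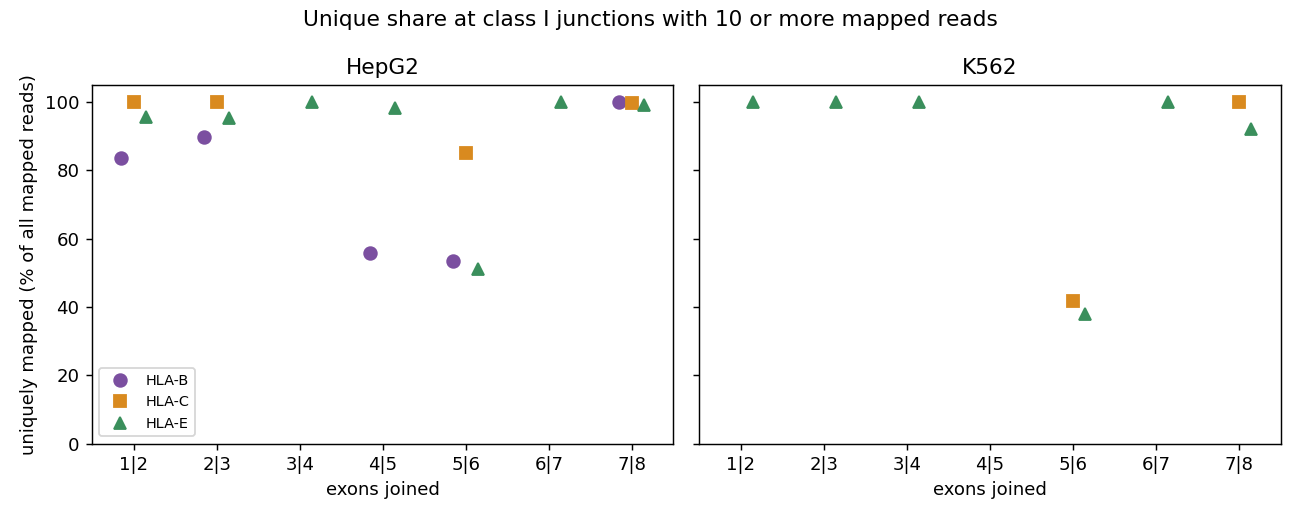
Uniquely mapped reads as a percentage of all mapped reads at each exon junction of HLA-B, HLA-C and HLA-E with at least 10 mapped reads, in HepG2 (left) and K562 (right). The exon 5 to 6 junction is the low point for HLA-C and HLA-E in both lines, at 85.0% and 51.1% in HepG2 and 41.7% and 38.03% in K562.

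The direction was the same at each heavy chain junction with enough reads. Among junctions with at least 10 unique reads over both tables, 5 of 5 of HLA-B, 4 of 4 of HLA-C and 7 of 7 of HLA-E had more scaled reads in HepG2. HLA-C had 3 reads in K562 against 66 in HepG2 at exons 1 to 2, 0 and 108 at exons 2 to 3, 20 and 692 at exons 5 to 6, and 27 and 1382 at exons 7 to 8. At exons 2 to 3 HepG2 was at least 28.9-fold higher, the lower 95% limit. HLA-B had 2 and 41 reads at exons 1 to 2, 6 and 89 at exons 2 to 3, 0 and 48 at exons 4 to 5, 2 and 8 at exons 5 to 6, and 1 and 24 at exons 7 to 8. The difference was called at 4 of the 5 junctions of HLA-B, and not at exons 5 to 6, where HepG2 was 4.02-fold higher (0.802 to 38.8). In HLA-C it was called at 4 of 4. The share of all junctions called by this rule, or higher in HepG2, was not computed, so these junction counts have no background.

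Reads were unevenly spread along the classical chains even in HepG2. HLA-C had 1 unique read at exons 3 to 4, 0 at exons 4 to 5 and 4 at exons 6 to 7 there, between junctions with 108, 692 and 1382, and all mapped reads at exons 4 to 5 were also 0. HLA-B had 3 at exons 3 to 4 and 1 at exons 6 to 7. HLA-E, in contrast, had 53, 60 and 127 unique reads at exons 3 to 4, 4 to 5 and 6 to 7 in HepG2. The exon 3 to 4 and 6 to 7 junctions of HLA-C and HLA-B held no multi-mapped reads in HepG2.

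**Figure D4:**
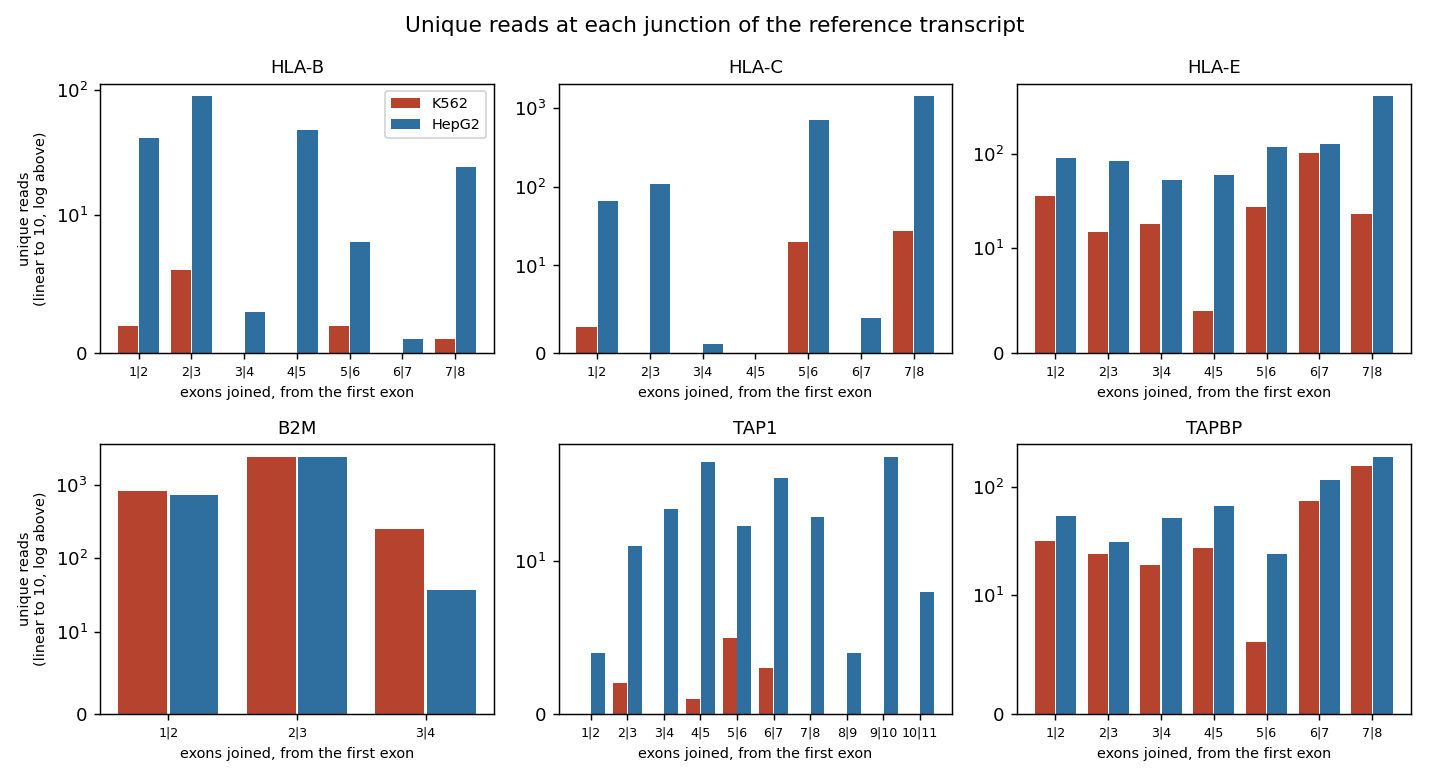
Unique reads in K562 and HepG2 at each exon junction of the reference transcript of HLA-B, HLA-C, HLA-E, B2M, TAP1 and TAPBP (axis linear to 10 and logarithmic above; no bar means 0 reads). HepG2 is higher along all of HLA-B, HLA-C and TAP1 wherever there are reads, whereas B2M is near equal at its first 2 junctions and higher in K562 at the last, with 247 reads against 37.

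In HLA-E the difference between lines was uneven along the transcript. At exons 6 to 7 it had 101 reads in K562 against 127 in HepG2, a ratio of 1.26 (0.965 to 1.66). At exons 7 to 8, which lies 5 bases past the last sense codon, it had 23 and 403, a ratio of 17.6 (11.6 to 28.1). The last junction held 10.3% of the gene's reads in K562 (6.62 to 15.01) and 43.1% in HepG2 (39.9 to 46.4). Tested genes had a junction within 20 bases of the end of the reading frame and 20 reads over all junctions in each table. A share there at least 20 points higher in HepG2, with intervals apart, was found in 0.521% of 3260 genes. It was found in 1 of the 4 members tested, HLA-E. Over the 3260 genes the median share there was 0.288% in K562 and 0.163% in HepG2, so many could hardly meet the rule. HLA-C carried 46.6% and 61.3% of its reads at its last junction, 2 bases before that point, and was not counted. This position near the stop codon was looked at after the values were seen.

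B2M differed at a junction past its reading frame, in the other direction. Its exon 2 to 3 junction, 11 bases before the end of the last sense codon, had 2354 reads in K562 against 2360 in HepG2. Its exon 3 to 4 junction, 17 bases past that point in the 3' untranslated region, had 247 and 37, a K562 to HepG2 ratio of 6.64 (4.69 to 9.66). That junction held 7.23% of B2M reads in K562 (6.38 to 8.15) and 1.19% in HepG2 (0.837 to 1.63). The exon 2 to 3 window is printed with capitals from the first base of exon 3, where the reading frame ends shortly after.
B2M: agatagttaagtgggATCGAGACATGTAAG

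TAP1 had reads in HepG2 at all 10 junctions of its reference transcript and in K562 at 4 of them. The highest HepG2 counts were 57 at exons 9 to 10, with 0 in K562, and 53 at exons 4 to 5, with 1 in K562. The 11 K562 reads of TAP1 lay mainly at exons 5 to 6, with 5, and exons 6 to 7, with 3. TAP2 had 104 reads in K562 against 115 in HepG2 at exons 1 to 2, which lies 4 bases before the start codon, and 79 and 98 at exons 4 to 5. TAPBP had its highest counts at exons 7 to 8, with 157 and 191, which lies 9 bases before the end of the last sense codon. All 7 tested junctions of TAP1, all 10 of TAP2 and all 7 of TAPBP had more scaled reads in HepG2, with called differences at 5, 1 and 0 of them. These counts too have no background over all junctions.

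One splice choice differed between the lines by the rule used for shares, which asks for 20 reads at the site in each table, a difference of 20 points and intervals apart. This was met by 4.15% of 24896 junction shares tested (3.9% of 30376 with all mapped reads), and by 2 of those in these genes, which are the complementary junctions of 1 site. From the exon 5 end of HLA-C, an acceptor that lengthens exon 6 by 18 bases, or 6 codons, took 8 of 28 unique reads in K562 (28.6%, 13.2 to 48.7) and 0 of 692 in HepG2 (upper limit 0.532%). With all mapped reads it took 8 of 56 (14.3%) and 0 of 814, and the difference was no longer counted. The usual form is the junction at which 41.7% of the K562 reads of HLA-C were uniquely mapped, as given above, while all 8 reads of the longer form were. The 2 forms are printed with capitals from the first base of exon 6.
HLA-C, usual exon 6: ggaggaagagctcagGTGGAAAAGGAGGGA
HLA-C, longer exon 6: ggaggaagagctcagGGCATTTTCTTCCCA

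Other genes of the region had a median ratio above 0. Between 29 and 34 Mb of chromosome 6, 81 other genes that were not on any list were tested, with a median log2 ratio of 0.21. Of these, 15 (18.5%) were higher in HepG2 and 11 (13.6%) in K562, against 21.9% and 16.8% of all genes tested. On the rest of chromosome 6 the median was 0.07 over 470 genes, and on chromosome 15, which holds B2M, it was 0.09 over 331.

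Promoter sequence from RefSeq (GRCh38.p14) was matched for 6 of the 9 genes. It is printed for 250 bases before the RefSeq start of HLA-B, HLA-C, TAP1, B2M and TAPBP. The first 3 passed the 2-fold limit and the last 2 did not, TAPBP being 1.60-fold higher in HepG2. The stretches of TAP1 and TAPBP lie wholly within the GENCODE reference transcripts given above, which start further upstream. These genes are known to share regulators. Capitals mark matches, on either strand, to GAAA, any 2 bases and GAAA again (interferon-stimulated response element, called the full form here), to its shorter form GAANNGAAA, TGACG (X2 box) and CCAAT (Y box).
HLA-B, chr6:31357180-31357429, minus strand: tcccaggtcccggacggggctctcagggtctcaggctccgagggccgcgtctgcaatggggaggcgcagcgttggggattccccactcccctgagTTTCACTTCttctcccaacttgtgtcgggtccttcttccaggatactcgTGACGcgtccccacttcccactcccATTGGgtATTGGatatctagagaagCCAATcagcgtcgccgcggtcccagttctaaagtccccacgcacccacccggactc
HLA-C, chr6:31272093-31272342, minus strand: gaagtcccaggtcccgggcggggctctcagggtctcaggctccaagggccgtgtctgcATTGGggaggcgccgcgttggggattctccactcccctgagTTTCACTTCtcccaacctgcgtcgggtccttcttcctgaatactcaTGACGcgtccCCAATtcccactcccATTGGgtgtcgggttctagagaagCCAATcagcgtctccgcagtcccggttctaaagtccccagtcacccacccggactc
TAP1, chr6:32853705-32853954, minus strand: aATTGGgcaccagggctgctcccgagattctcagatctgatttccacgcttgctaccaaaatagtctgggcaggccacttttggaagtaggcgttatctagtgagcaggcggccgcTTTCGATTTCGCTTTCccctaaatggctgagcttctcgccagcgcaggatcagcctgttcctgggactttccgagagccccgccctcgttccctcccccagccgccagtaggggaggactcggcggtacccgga
B2M, chr15:44711267-44711516, plus strand: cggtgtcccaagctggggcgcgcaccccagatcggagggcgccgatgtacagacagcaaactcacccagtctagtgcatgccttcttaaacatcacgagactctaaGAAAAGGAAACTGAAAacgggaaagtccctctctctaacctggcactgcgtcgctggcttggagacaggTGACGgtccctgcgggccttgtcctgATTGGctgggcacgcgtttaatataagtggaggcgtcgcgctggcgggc
TAPBP, chr6:33314079-33314328, minus strand: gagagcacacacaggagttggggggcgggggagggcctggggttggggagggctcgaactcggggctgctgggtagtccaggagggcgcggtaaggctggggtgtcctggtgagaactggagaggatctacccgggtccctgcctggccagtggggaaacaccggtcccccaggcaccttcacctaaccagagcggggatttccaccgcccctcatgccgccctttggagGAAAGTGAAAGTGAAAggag

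A match to the full form was found before the RefSeq starts of TAP1, TAP2, TAPBP and B2M, and in 3.02% of 35116 promoters. TAP1 has another RefSeq start, and the 250 bases before it (chr6:32852762-32853011) held no match to any of these forms. GAANNGAAA was found before HLA-B, HLA-C and TAP2, and in 6.56% of promoters. TGACG was found before HLA-B, HLA-C, TAP2 and B2M, against 21.2% of promoters, and CCAAT before HLA-B, HLA-C, TAP1 and B2M, against 32.0%. In TAP1, TAPBP and B2M a pair of matches to the full form overlap. A match is a description of the sequence and not a measured binding site.

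Around the 9 genes, 83 other genes of antigen presentation were listed and 61 were tested. Of these, 22 were higher in HepG2 and 6 in K562, against 21.9% and 16.8% of all genes tested, with a median log2 ratio of -0.41. With total-read scaling the counts were 19 and 9. Without the most-read junction of each gene they were 18 and 2 of the 58 still tested, and the 2 were PROCR and CTSS. HLA-G and GBP1 were among those with too few reads left to test. These shares of all genes tested are the background for each list that follows.

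Of 9 class I-like genes tested, 6 were higher in HepG2 and 1 in K562, with a median of -3.95, at HLA-F. HLA-F had 0 reads in K562, so this value is set by the 3 counts that stood in for 0. The same holds for its value of -3.02 without its most-read junction. AZGP1, a lipid-mobilising class I-like protein, had 2 reads in K562 against 748 in HepG2, and FCGRT, the neonatal Fc receptor heavy chain, had 7 and 478. HLA-G, a class I chain known from the placenta, had 16 and 257, and HLA-F had 0 and 46, at least 12.03-fold higher in HepG2 (lower 95% limit). The HLA-G difference rests on its most-read junction, without which too few reads were left to test. With multi-mapped reads included HLA-G had 19 and 353. Whether reads from other class I chains were placed on HLA-G was not tested. PROCR, the protein C receptor of endothelial cells, went the other way with 359 and 9. MICA, a ligand of the NKG2D receptor, had 62 and 190 and left the call with total-read scaling, while MICB had 66 and 100, with a log2 ratio of -0.61 that turned to 0.56 without its most-read junction, and MR1, which presents vitamin B metabolites, 122 and 60.

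Of 9 immunoproteasome, activator and constitutive catalytic subunits, 5 were higher in HepG2 and 0 in K562. The interferon-inducible subunits PSMB8 and PSMB9 had 73 and 444 and 3 and 131 reads. PSMB9 lies next to TAP1, and was 43.9-fold higher in HepG2 (14.7 to 215). Its log2 ratio was -5.46, and -3.33 without its most-read junction, still called. PSMB10, the third inducible subunit, had 279 reads in K562 against 119 in HepG2, a K562 to HepG2 ratio of 2.33 (1.88 to 2.92), and entered the call with total-read scaling. The activator subunits PSME1 and PSME2 had 1488 and 11437 and 696 and 3187, with 2530 and 12111 mapped reads for PSME2 when multi-mapped reads were included. PSMB5, a constitutive subunit, was also higher in HepG2, with 104 and 461, but its log2 ratio went from -2.15 to -1.32 without its most-read junction and left the call, whereas PSMB6, PSMB7 and PSME3 were within 2-fold.

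**Figure D5:**
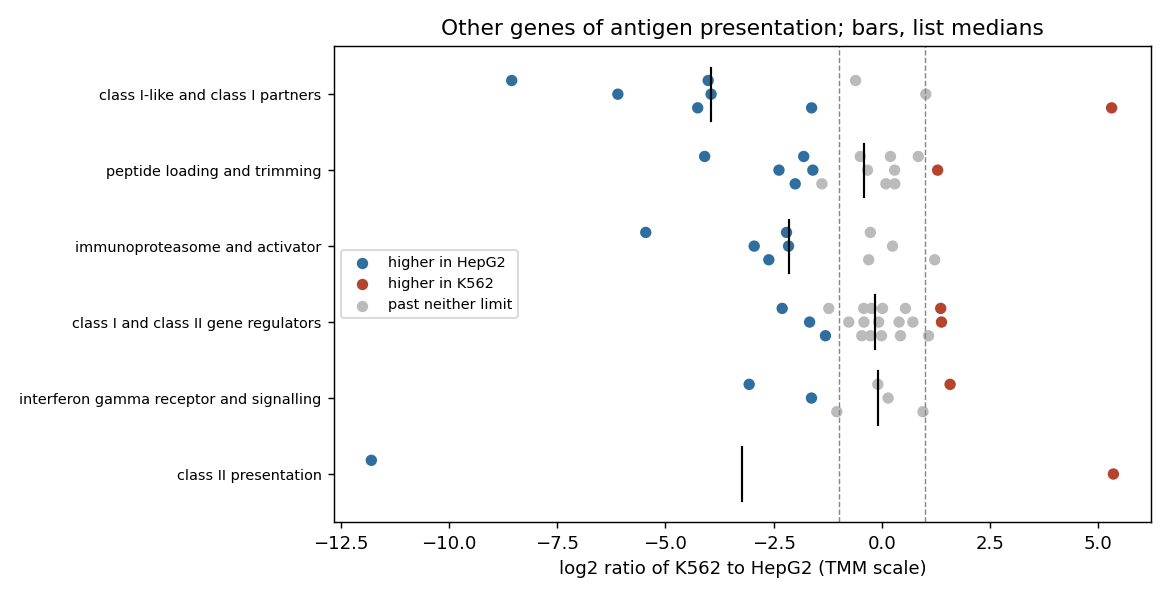
Log2 ratio of K562 to HepG2 for each of 61 tested genes in the 6 lists of antigen presentation, coloured by call, with black bars at the list medians and dashed lines at 2-fold. The class I-like and immunoproteasome lists lie mostly to the left, with medians of -3.95 and -2.15, and the regulators and interferon gamma genes centre near 0, at -0.16 and -0.09. The median of -3.95 lies at HLA-F, with 0 reads in K562, where 3 counts stood in for 0.

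Of 14 loading and trimming genes, 5 were higher in HepG2 and 1 in K562, with 8 in neither direction. The endoplasmic reticulum chaperones HSPA5, CALR and PDIA3 had 3197 and 16526, 9450 and 32866, and 2258 and 8998 reads. ERAP2, a peptide-trimming aminopeptidase, had 14 and 238, at a ratio of 17.1 (9.98 to 31.7). The folding sensor UGGT1 had 1696 and 5096, and the chaperone CANX, with 15641 and 19575, was within 2-fold. BLMH, a cytosolic peptidase, was higher in K562 with 4290 and 1746. GANAB, a glucosidase of glycoprotein folding, had 4562 and 4253 and the peptidase TPP2 1634 and 1320, both within 2-fold, and the peptidase NRDC, with 3793 and 2104, entered the call for K562 with total-read scaling.

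Of 20 tested regulators of class I and class II genes, 3 were higher in HepG2 and 2 in K562, both no more than the share over all genes. IRF2 had 177 and 560 reads, RFXAP, a subunit of the RFX complex at the X box, 44 and 216, and NFKB1 378 and 928, which left the call with total-read scaling. EZH2, the methyltransferase of the polycomb complex, had 1905 in K562 and 738 in HepG2, and IRF1 277 and 106. STAT2, NFYC and the ubiquitin ligase WWP2 were within 2-fold, with 748 and 748, 659 and 788, and 597 and 791. In the interferon gamma list JAK2 was higher in K562, with 156 and 52, and IFNGR2 had 42 and 129 and left the call with total-read scaling and without its most-read junction. GBP1 had 0 and 25, at least 6.32-fold higher in HepG2 (lower 95% limit), but fell below the minimum of 20 reads without its most-read junction. JAK1 had 1188 and 1260. The receptor chain IFNGR1 had 764 and 1564, the phosphatase PTPN2 199 and 179, and GBP2 171 and 88, none of them past the limit with its whole interval. Without its most-read junction IFNGR1 entered the call, with log2 ratios of -1.04 and -1.19, while NFYC turned from -0.26 to 0.16 and PTPN2 from 0.15 to -0.09.

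Class II presentation was seen mainly through CD74, the invariant chain, with 1 read in K562 and 3544 in HepG2, a log2 ratio of -11.80, and -10.59 without its most-read junction. CTSS, the protease that trims the invariant chain, had 821 and 20. The other 11 genes of that list did not reach the minimum of 20 reads. CIITA, the class II transactivator, had 1 read over both tables, as given above.

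The lines matched their labels. K562 had 5 of 5 erythroid markers higher in K562, summed to 9784 reads against 0 in HepG2, and 5 of 5 hepatocyte markers were higher in HepG2, at 843591 reads against 220. Of markers of other cells that present antigen, the 6 B and dendritic cell genes summed to 31 reads in K562 and 14 in HepG2, with MS4A1, CD79B and FLT3 at 0 in both. Of 4 monocyte genes, LYZ had 333 and 25682 reads, CD14 0 and 17, and CSF1R and FCGR3A 0 in both. Of 5 T and NK cell genes, CD3D had 196 and 2, CD3E 11 and 0, and NKG7 4 and 0. CD2 and GNLY were at 0 in both. Of 4 fibroblast genes, COL1A1 had 33 and 1, COL3A1 4 and 0, PDGFRB 0 and 34 and DCN 0 in both. The part of these in the results was not tested. The tables held 7487508 unique reads in K562, 74.0% of those mapped, and 9927809 in HepG2, 82.7%.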

How the data were processed

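Ribosome profiling libraries of K562 and HepG2, 2 samples per line, were analysed as 1 pooled table per line. Per the file headers, the deposited columns give, for every annotated junction, the raw count of mapped reads and the raw count of those mapped to 1 place. The submitters' processing notes name cutadapt, Bowtie2, STAR 2.6.0 and GRCh38. The program that counted junctions is not given in the sources used here. Each count covers only footprints that cross a junction.

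GENCODE 29 introns matched 350016 junctions (99.8%) and gave reference transcripts. Gene totals of unique reads used junctions of 1 gene only, which left out 6033 junctions of more than 1 gene, and scaled with TMM (edgeR 4.0.16). Genes needed 20 reads over both tables. Ratios have exact conditional binomial (Clopper-Pearson) 95% intervals, levels exact Poisson intervals, for counting error only. In ratios, 3 counts stood in for 0. Junction shares needed 20 reads at the site in each table. No test across samples was possible.

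The members and lists were chosen with earlier results of these data known. All 9 members were named, and of each list the called genes, up to 6 with the most reads, and up to 4 others with the most reads; 1 gene is not reported here. Shares near the stop codon and a setting with only inner coding junctions were added after seeing the data. Alternatives covered scaling (DESeq2 1.42.0 size factors, total reads), all mapped reads, minimum counts, 99% intervals, shared junctions, the most-read junction and coding junctions. On simulated counts for 10841 genes the rule called 0 of 50 genes changed 2-fold, 35 of those changed 3-fold and 47 changed 4-fold. All 50 changed 8-fold were called, with 0 calls among 10644 unchanged genes, and 95.8% of intervals held the true ratio. The simulated counts held counting error only, as the intervals assume, so variation between samples, junctions or mapping was not covered.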

Additional observations from a re-analysis of the deposited data

Results flagged for a closer look

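The B2M junction from 44711604 to 44715545 on chromosome 15, which is not in the reference transcript, had reads outside the main measurement of unique reads: 122 multi-mapped reads in K562 and 400 in HepG2, beside 1 unique read in each line. The log2 ratio of B2M was 0.13 with unique reads and -0.022 with all mapped reads, which include these.

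The TAP2 junction from 32832825 to 32835153 on chromosome 6 had 4 multi-mapped reads beside 3 unique reads in K562, above the floor of 3 that a count of 0 allows.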

How the results depend on the processing

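The count of 4 genes higher in HepG2 held under all 10 alternatives run, and 67 of 68 values of single genes kept their direction and their side of the limit. The exception was B2M, whose log2 ratio turned from 0.13 to -0.022 with all mapped reads. Without the most-read junction of each gene, pathway genes higher in K562 went from 6 to 2, and the uniquely mapped share of the 9 genes from 93.8% to 86.1% in K562 and from 90.4% to 80.0% in HepG2. Counted junction shares went from 2 to 0 with all mapped reads and to 0 with 50 reads at the site, a minimum that left only 2 shares, both of B2M, and did not admit the HLA-C site. TAP2 had no value with a minimum of 100 reads or without its most-read junction. The HLA-C log2 ratio was -5.29 and -4.70 with only inner coding junctions, a setting chosen after seeing the data. No paired analysis was possible because the columns pool the samples of a line and carry no replicate numbers, and leaving out a replicate was not possible for the same reason. Depth limits HLA-B and TAP1 in K562, with 11 reads each, and leaves NLRC5 and CIITA unresolved.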
